A study of Mus musculus with 15 samples.

Results

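The major urinary protein (Mup) genes form a family of related genes, many of them near-identical, on mouse chromosome 4, and 8 of them, Mup1, Mup3, Mup5, Mup12, Mup16, Mup17, Mup20 and Mup21, are described here across 15 mouse livers. They are 8 of the 22 rows that carry the name Mup and a number, in a deposited table of 18510 rows. The 8 were picked by gene symbol with the differences between the groups already known, so their levels and differences are given as a description, with no test. Messenger RNA was sequenced from the livers of wild-type (WT) mice in 3 groups of 5. The Alc UA mice were fed alcohol and also given UA, which is all that the labels say of this agent. The Alc mice were fed alcohol without UA, and the Ctrl mice had a control diet. Of strain, sex, age, length of feeding and time of day, none is given in the sources used here.

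Major urinary proteins are small lipocalins, barrel-shaped carriers of volatile molecules. Hepatocytes secrete them into the blood, and the kidney passes them into the urine, where they bind and slowly release pheromones and act as scent signals themselves. In mouse liver their transcription is known to depend on growth hormone, androgens, thyroid hormone and glucocorticoids, and it is higher in males than in females.

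Levels are FPKM, as the authors deposited them: fragments counted on a gene, scaled for transcript length and for the size of the library, so that genes can be compared with each other. Differences are between group means of log2(FPKM + 1), with the SE of a linear model over all libraries (limma), and are positive when the first-named group was higher. All FPKM of a library added up to 551153 to 668832. How many reads lay behind them is unknown, so no counting error can be given. In this fit, 10959 genes were tested. Of these, 33.3% passed a Benjamini-Hochberg adjusted p of 0.05 in Alc against Ctrl, 10.6% (1157) higher and 22.8% (2497) lower. That split moved to 2049 higher and 2024 lower after quantile normalization and to 2012 higher and 1943 lower with median-of-ratios scaling. In Alc UA against Ctrl, 42.6% passed, 10.5% higher and 32.1% lower. The median log2 difference over all genes was -0.05 for Alc UA against Alc, -0.12 for Alc against Ctrl and -0.16 for Alc UA against Ctrl. All 3 comparisons share libraries with each other, so their values are set side by side and not compared by correlation or overlap. The tissue label was checked with 10 hepatocyte markers, all of which were expressed. Albumin (Alb), the most abundant of them, was at 25235 ± 6769 FPKM in Alc UA livers, 36508 ± 5080.2 FPKM in Alc livers and 27562 ± 6334 FPKM in Ctrl livers (SD, n = 5 each). Transcripts of the Y-linked Ddx3y were present in every library, at 10.8 to 16.7 FPKM.

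The library Alc 4 stood apart in the Mup genes. It was the lowest Alc library in 20 of the 22 Mup rows and in 6 of the 8 genes described, and the lowest of all 15 libraries in 15 rows. For the 8 genes, differences that involve the Alc group are therefore given with and without it where they moved by more than 0.1 on the log2 scale. Log2 differences of other single Mup rows include Alc 4. In the same library the summed level of 13 other genes with higher expression in male liver was the lowest of the Alc group, at 1634 FPKM, and that of 13 genes with higher expression in female liver was the highest of the Alc group, at 403 FPKM. Of the marker lists, hepatocyte markers had their lowest sum of the Alc group in Alc 4, at 46061 FPKM. Kupffer (277 FPKM), stellate (276 FPKM), erythroid (992 FPKM), T and NK (10.04 FPKM) and B and plasma cell markers (6.68 FPKM) had their highest sum of the Alc group there. The part of all these in the low Mup values was not tested.

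The sequence of these genes decides how well a single value can be trusted, so a stretch of 90 coding bases is shown for 7 of the 8. The stretch was picked, among those without gaps, for the most positions that vary among the 8 genes, which was 16. It is therefore not typical of the coding sequence. It was read from GENCODE M21 transcripts, on the coding strand, and capitals mark bases that differ from the most common base among the 14 Mup genes of the same coding length.
Mup1, Mup12 and Mup16: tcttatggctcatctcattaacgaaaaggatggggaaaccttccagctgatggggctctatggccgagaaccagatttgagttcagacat
Mup17: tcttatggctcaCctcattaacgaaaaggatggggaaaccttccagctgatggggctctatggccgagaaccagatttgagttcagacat
Mup20: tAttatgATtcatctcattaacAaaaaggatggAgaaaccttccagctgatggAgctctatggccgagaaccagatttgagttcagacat
Mup3: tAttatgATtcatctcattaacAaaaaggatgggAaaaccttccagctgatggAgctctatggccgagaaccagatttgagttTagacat
Mup5: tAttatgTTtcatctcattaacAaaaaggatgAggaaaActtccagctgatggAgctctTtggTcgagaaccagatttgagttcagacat
Mup1, Mup12 and Mup16 had the same 90 bases, and Mup17 differed at 1 of them. Mup20 differed at 6, Mup3 at 7 and Mup5 at 9. Over the whole coding sequence, Mup1, Mup12, Mup16 and Mup17 were 98.7% to 99.6% identical to each other. They belong to 16 central genes of the cluster, which were 98.3% to 99.8% identical in 120 pairs. The central genes lie between Mup4 and Mup6 on one side and Mup5, Mup20, Mup3 and Mup21 on the other. Mup3 and Mup21, neighbours at the end of the cluster, were 95.0% identical to each other, and Mup3 was 83.2% to 84.6% identical to the central genes.

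A read can be placed only where its bases occur in 1 gene. Of the 50-base windows of the transcript, 84.4% were found in no transcript of another gene for Mup3, 82.9% for Mup5, 80.7% for Mup21 and 49.5% for Mup20. The share was 21.9% for Mup17, 14.6% for Mup12, 9.34% for Mup16 and 5.24% for Mup1. These shares depend on the length of the window. With 150-base windows they were 100% for Mup3, Mup5 and Mup21 and 68.9% for Mup20. They were then 59.6% for Mup17, 24.1% for Mup12, 27.6% for Mup16 and 17.5% for Mup1. The values of Mup17, Mup12, Mup16 and Mup1 are thus uncertain one by one, because the way the authors' counting divided shared reads is unknown. The same holds for other central genes named below. Of their 50-base windows, 0% were unique for Mup2, Mup15 and Mup19, 7.85% for Mup9, 10.4% for Mup18 and 13.8% for Mup10. A level summed over the family depends less on how reads were divided within it.

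**Figure D1:**
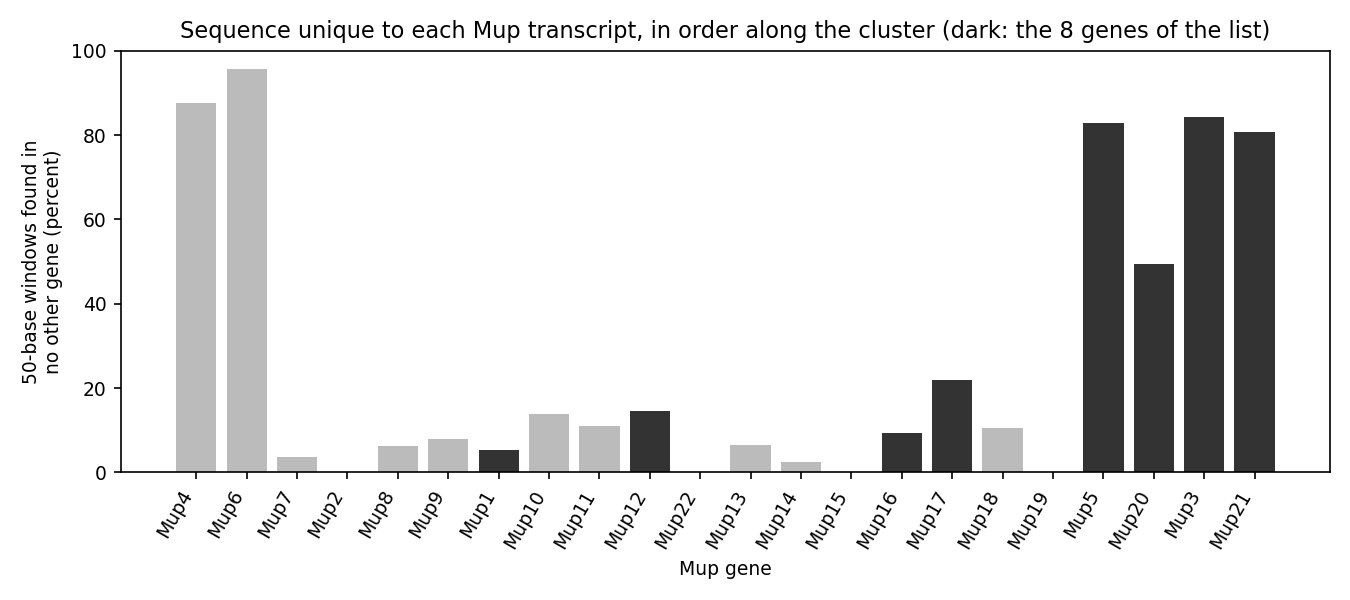
Percent of 50-base transcript windows that occur in no transcript of another gene, for each of the 22 Mup genes. Mup3, Mup5 and Mup21 lie above 80% for 50-base windows, Mup20 lies at 49.5%, and Mup1, Mup12, Mup16 and Mup17 lie between 5.24% and 21.9%.

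Summed over the family, Mup transcripts took up a larger part of the liver transcriptome in Alc UA livers than in Alc livers. The 22 rows together held 21.9, 18.3, 15.2, 13.8 and 23.7% of the FPKM of the 5 Alc UA libraries, 11.8, 12.1, 12.6, 3.42 and 8.52% of the 5 Alc libraries and 10.2, 11.1, 9.36, 12.9 and 14.2% of the 5 Ctrl libraries. Every Alc UA library lay above every Alc library, and the Alc and Ctrl libraries overlapped. The mean share was 18.6 ± 4.24% in Alc UA livers, 9.71 ± 3.87% in Alc livers and 11.5 ± 1.96% in Ctrl livers (SD, n = 5 each), and 11.3% in Alc livers without Alc 4. On the log2 scale the summed level differed by 1.10 between Alc UA and Alc, by -0.51 between Alc and Ctrl and by 0.59 between Alc UA and Ctrl. Without Alc 4, the first of these was 0.76 and the second -0.17.

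The make-up of the sum also differed between the groups. Mup20, Mup3 and Mup21 held 13.9 ± 4.21% of the Mup FPKM in Alc UA livers, 16.02 ± 7.26% in Alc livers and 35.4 ± 9.83% in Ctrl livers. Every Ctrl library lay above every alcohol-fed library in this share, except that Alc 3, at 25.9%, lay above Ctrl 5, at 23.8%. The 16 central genes held 16.1 ± 4.45% of the library in Alc UA livers, 8.12 ± 3.16% in Alc livers and 7.53 ± 2.15% in Ctrl livers. The member of the central group with the highest mean in alcohol-fed livers was Mup19. It held 22.1 ± 1.60% of the Mup FPKM in Alc UA livers, 21.6 ± 2.30% in Alc livers and 9.54 ± 3.19% in Ctrl livers. These shares of Mup19 are uncertain, since 0% of its 50-base windows were unique to it.

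**Figure D2:**
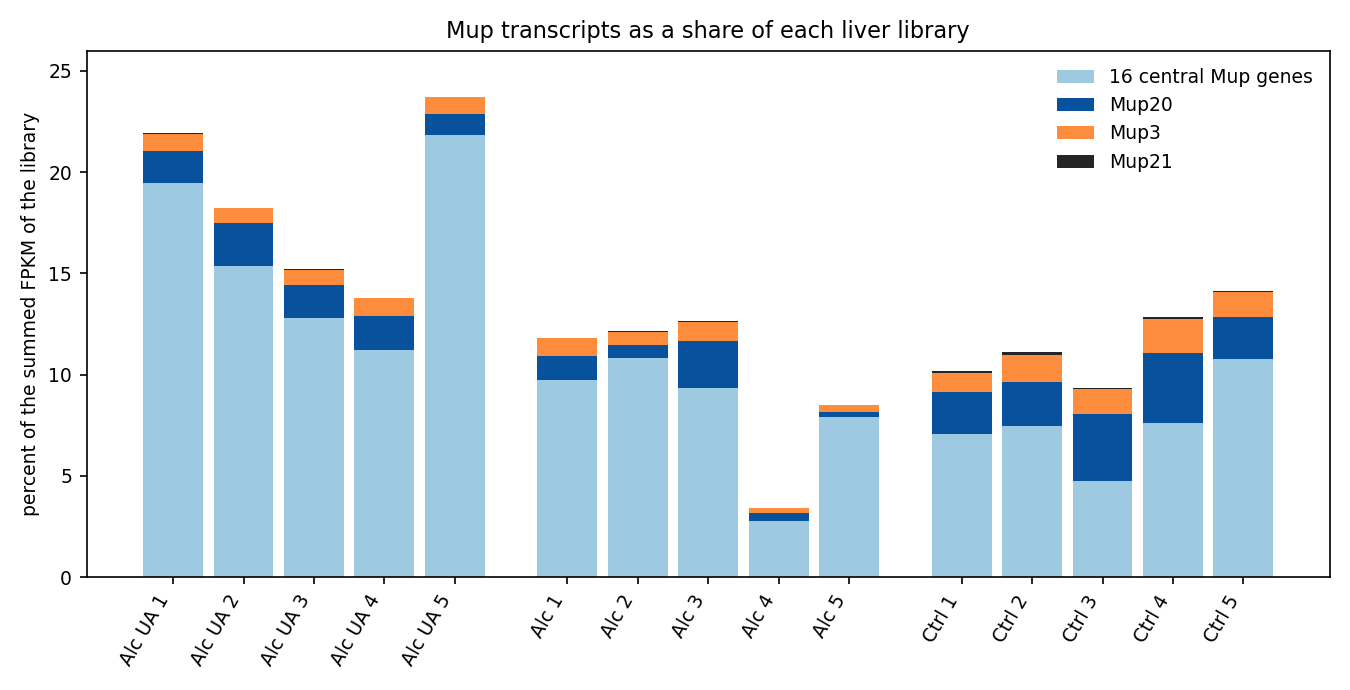
Stacked bars of the percent of each library's FPKM that came from the Mup rows, for 5 Alc UA, 5 Alc and 5 Ctrl libraries, split by groups of rows. Mup4, Mup5 and Mup6 together held at most 0.00942% of a library and are not drawn. The bars reach 13.8% to 23.7% in Alc UA livers, 3.42% to 12.6% in Alc livers and 9.36% to 14.2% in Ctrl livers, and Alc 4 has the shortest bar.

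The genes at the end of the cluster, Mup20, Mup3 and Mup21, were lower in alcohol-fed livers than in Ctrl livers, with or without UA. Mup20 encodes darcin, a protein of male mouse urine that attracts females and from which they learn a male's scent. Its level was 9521, 12363, 9839, 9625 and 6472 FPKM in Alc UA livers, 6534, 3886, 13552, 2275 and 1202 FPKM in Alc livers, and 13617, 13757, 19105, 23247 and 12525 FPKM in Ctrl livers. The lowest values were those of Alc 5 and Alc 4, while Alc 3 lay inside the range of the Ctrl livers and was higher than any Alc UA liver. Between Alc UA and Alc the log2 difference was 1.25 ± 0.47, with overlapping groups, and it was 1.05 without Alc 4 and 0.82 without Alc 5. It was -2.02 ± 0.47 for Alc against Ctrl (-1.82 without Alc 4), where 4 of 5 Alc livers lay below all Ctrl livers. It was -0.77 ± 0.47 for Alc UA against Ctrl, where every Alc UA liver lay below every Ctrl liver on the deposited scale, though not under any of 4 other scalings. By mean level Mup20 ranked 5th among all rows in Alc UA livers, 12th in Alc livers and 4th in Ctrl livers.

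Mup3, another abundant secreted member, was found at 5079, 4222, 4393, 5027 and 4832 FPKM in Alc UA livers, 5064, 3753, 5650.4, 1219 and 2118 FPKM in Alc livers, and 6055, 8599, 7049, 11117 and 7445 FPKM in Ctrl livers. Alc UA livers spanned a narrow range, whereas Alc livers reached both above and below it. The means were 4711 ± 384 FPKM in Alc UA livers, 3561 ± 1886 FPKM in Alc livers (4146 ± 1568 FPKM without Alc 4) and 8053 ± 1940.2 FPKM in Ctrl livers. Alc UA and Alc livers overlapped, and their log2 difference of 0.61 ± 0.33 became 0.27 without Alc 4. Against Ctrl livers it was -0.75 ± 0.33 in Alc UA livers and -1.35 ± 0.33 in Alc livers (-1.02 without Alc 4), and on the deposited scale every library of both groups lay below every Ctrl library. The Alc and Ctrl libraries overlapped under each of the 4 other scalings, and the Alc UA and Ctrl libraries under quantile and median-of-ratios scaling.

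For Mup21 the 3 groups were apart from each other. It was at 227, 157, 285, 111 and 211 FPKM in Alc UA livers, 64.6, 92.1, 86.5, 59.5 and 33.9 FPKM in Alc livers, and 399, 709, 500.2, 745 and 466 FPKM in Ctrl livers. Alc livers were lowest, Alc UA livers next and Ctrl livers highest, and no library crossed between groups. The means were 198 ± 66.8, 67.3 ± 23.3 and 564 ± 154 FPKM for Alc UA, Alc and Ctrl. Log2 differences were 1.55 ± 0.28 for Alc UA against Alc, -3.08 ± 0.28 for Alc against Ctrl and -1.53 ± 0.28 for Alc UA against Ctrl. Both alcohol-fed groups lay below every Ctrl library under all 4 other scalings too. None of the 24 differences of the 8 genes changed sign under any scaling.

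Promoter sequences of 3 of the 8 genes were found in the RefSeq table (GRCm38.p6), and all 3 are shown. Each is the 250 bases before the start of the gene, on the minus strand of chromosome 4, with the letters TATATAA in capitals.
Mup3, chr4:62087318-62087567: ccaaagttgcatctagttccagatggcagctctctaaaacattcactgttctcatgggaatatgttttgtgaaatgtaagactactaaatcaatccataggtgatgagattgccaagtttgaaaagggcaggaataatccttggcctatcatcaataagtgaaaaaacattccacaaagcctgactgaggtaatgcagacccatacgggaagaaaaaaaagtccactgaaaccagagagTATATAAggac
Mup21, chr4:62150842-62151091: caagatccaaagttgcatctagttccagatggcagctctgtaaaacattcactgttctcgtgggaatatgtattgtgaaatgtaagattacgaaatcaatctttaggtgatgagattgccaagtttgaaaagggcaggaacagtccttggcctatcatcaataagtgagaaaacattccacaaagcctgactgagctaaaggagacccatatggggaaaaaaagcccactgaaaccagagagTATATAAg
Mup17, chr4:61595833-61596082: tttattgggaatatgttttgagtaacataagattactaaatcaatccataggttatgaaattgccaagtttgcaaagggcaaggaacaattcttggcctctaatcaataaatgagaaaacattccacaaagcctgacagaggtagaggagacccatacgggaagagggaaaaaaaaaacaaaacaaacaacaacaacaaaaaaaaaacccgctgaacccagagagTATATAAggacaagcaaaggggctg
The 150 bases up to TATATAA were 90.2% identical between Mup3 and Mup21, 55.8% between Mup17 and Mup3 and 55.6% between Mup17 and Mup21. In these bases, Mup17 was 96.7% identical to Mup9, 96.1% to Mup19 and 87.9% to Mup18. These 3 genes were higher in Alc than in Ctrl livers, with log2 differences of 0.96, 0.72 and 0.93. Mup17 was also 95.4% identical to Mup2 and 92.8% to Mup10, which were lower there (-0.60 and -0.71). It was 96.1% identical to Mup15, whose log2 difference of -0.14 ± 0.59 had no clear direction. The Mup15 mean was 2676 FPKM in Alc livers, 3272 FPKM without Alc 4, and 2367 FPKM in Ctrl livers. Mup3 was 90.1% identical to Mup6, at -0.45 for Alc against Ctrl and 0.51 for Alc UA against Ctrl. What promoter sequence contributed was not tested. TATATAA was searched on both strands and stood in 11 of the 14 Mup promoters found and in 3.04% of 32851 promoters in the table. TTCNNNGAA holds the core letters bound by STAT5, a transcription factor that acts downstream of growth hormone. It stood in 0 of the 14 and in 7.02% of all promoters, so no match to it overlapped one to TATATAA in a Mup promoter. For 14 promoters, many of them alike, 0 is near that share. Sites outside the 250 bases were not searched.

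Mup16 and Mup17, a pair of neighbours in the central part of the cluster, had higher levels in alcohol-fed livers than in Ctrl livers. Mup16 was at 3289.9, 2738, 2039, 2511 and 3628 FPKM in Alc UA livers, 2397, 2142, 2506, 319 and 1409 FPKM in Alc livers, and 525, 314, 263, 526 and 873 FPKM in Ctrl livers. All Alc UA livers exceeded all Ctrl livers, and so did all Alc livers other than Alc 4. The means were 2841 ± 629 FPKM in Alc UA livers, 1755 ± 909 FPKM in Alc livers (2114 ± 494 FPKM without Alc 4) and 500.2 ± 241 FPKM in Ctrl livers. It differed on the log2 scale by 0.97 ± 0.47 for Alc UA against Alc (0.43 without Alc 4), 1.63 ± 0.47 for Alc against Ctrl (2.17 without Alc 4) and 2.60 ± 0.47 for Alc UA against Ctrl. Its mean ranked 30th among all rows in Alc UA livers, 45th in Alc livers and 164th in Ctrl livers.

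Mup17 had 4328, 2875, 2616, 1631 and 6817 FPKM in Alc UA livers, 1390.1, 2393, 961, 332 and 1314 FPKM in Alc livers, and 678, 134, 236, 259.8 and 847 FPKM in Ctrl livers. It was spread widely within each of the 3 groups. The means were 3653 ± 2015 FPKM in Alc UA livers, 1278 ± 750.5 FPKM in Alc livers (1515 ± 615 FPKM without Alc 4) and 431 ± 312 FPKM in Ctrl livers. The Alc UA and Alc ranges overlapped, with a log2 difference of 1.60 ± 0.55 (1.18 without Alc 4). Alc livers without Alc 4 all exceeded all Ctrl livers, and the log2 difference was 1.64 ± 0.55 with Alc 4 and 2.06 without it. Alc UA livers exceeded Ctrl livers in every library, by 3.24 ± 0.55. With library weights the Alc against Ctrl difference was 2.89.

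Mup1 and Mup12, whose coding sequences differ at 2 bases, were low in Alc livers and high in Alc UA livers. MUP1 protein has been studied in mice as a circulating factor that affects glucose and lipid metabolism. Its gene was at 1699, 1569.5, 852, 728 and 1729 FPKM in Alc UA livers, 279, 269, 239.5, 22.6 and 104 FPKM in Alc livers, and 397, 677, 277, 672 and 1333 FPKM in Ctrl livers. Every Alc UA liver was above every Alc liver, and Ctrl livers overlapped both groups. Mean levels were 1316 ± 485 FPKM in Alc UA livers, 183 ± 114 FPKM in Alc livers and 671 ± 409 FPKM in Ctrl livers. Log2 differences for Mup1 were 3.19 ± 0.59 for Alc UA against Alc (2.56 without Alc 4), -2.11 ± 0.59 for Alc against Ctrl (-1.48 without Alc 4) and 1.08 ± 0.59 for Alc UA against Ctrl.

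Mup12 was at 569, 1104, 502, 330.2 and 1574 FPKM in Alc UA livers, 99.96, 85.97, 59.1, 13.8 and 75.1 FPKM in Alc livers, and 276, 281, 86.6, 492 and 535 FPKM in Ctrl livers. Every Alc liver was below every Alc UA liver, and 1 Ctrl liver, Ctrl 3, lay within the Alc range. The mean was 12.2-fold higher in Alc UA livers, at 816 ± 513 FPKM, against 66.8 ± 33.2 FPKM in Alc livers and 334 ± 182 FPKM in Ctrl livers. On the log2 scale the difference was 3.62 ± 0.57 for Alc UA against Alc (3.13 without Alc 4), -2.31 ± 0.57 for Alc against Ctrl (-1.83 without Alc 4) and 1.30 ± 0.57 for Alc UA against Ctrl. Summed over Mup1, Mup12, Mup16 and Mup17, which share reads with each other and with the other central genes, the level was 8626 ± 3411 FPKM in Alc UA livers, 3282 ± 1618 FPKM in Alc livers and 1936 ± 1021 FPKM in Ctrl livers.

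Mup5, known in the mouse mainly from secretory glands of the head, was the least abundant of the 8 in liver. It was at 7.38, 23.4, 15.6, 16.6 and 33.6 FPKM in Alc UA livers, 2.61, 2.86, 4.19, 1.96 and 2.49 FPKM in Alc livers, and 6.08, 3.89, 4.55, 5.84 and 4.79 FPKM in Ctrl livers. Alc UA livers were above all others, and all Alc livers but Alc 3 were below all Ctrl livers. The means were 19.3 ± 9.81 FPKM in Alc UA livers, 2.82 ± 0.832 FPKM in Alc livers and 5.03 ± 0.915 FPKM in Ctrl livers. The log2 difference was 2.29 ± 0.28 for Alc UA against Alc, -0.67 ± 0.28 for Alc against Ctrl and 1.62 ± 0.28 for Alc UA against Ctrl. Over all 10959 genes, limma called 1 gene in Alc UA against Alc (0.00912% of the genes tested), and it was Mup5, while 664 had an unadjusted p under 0.05. Leaving out 1 library at a time gave 1 to 5 such genes, with 5 without Alc UA 4. This is a count over all genes and no test of Mup5, which may have been picked for it.

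**Figure D3:**
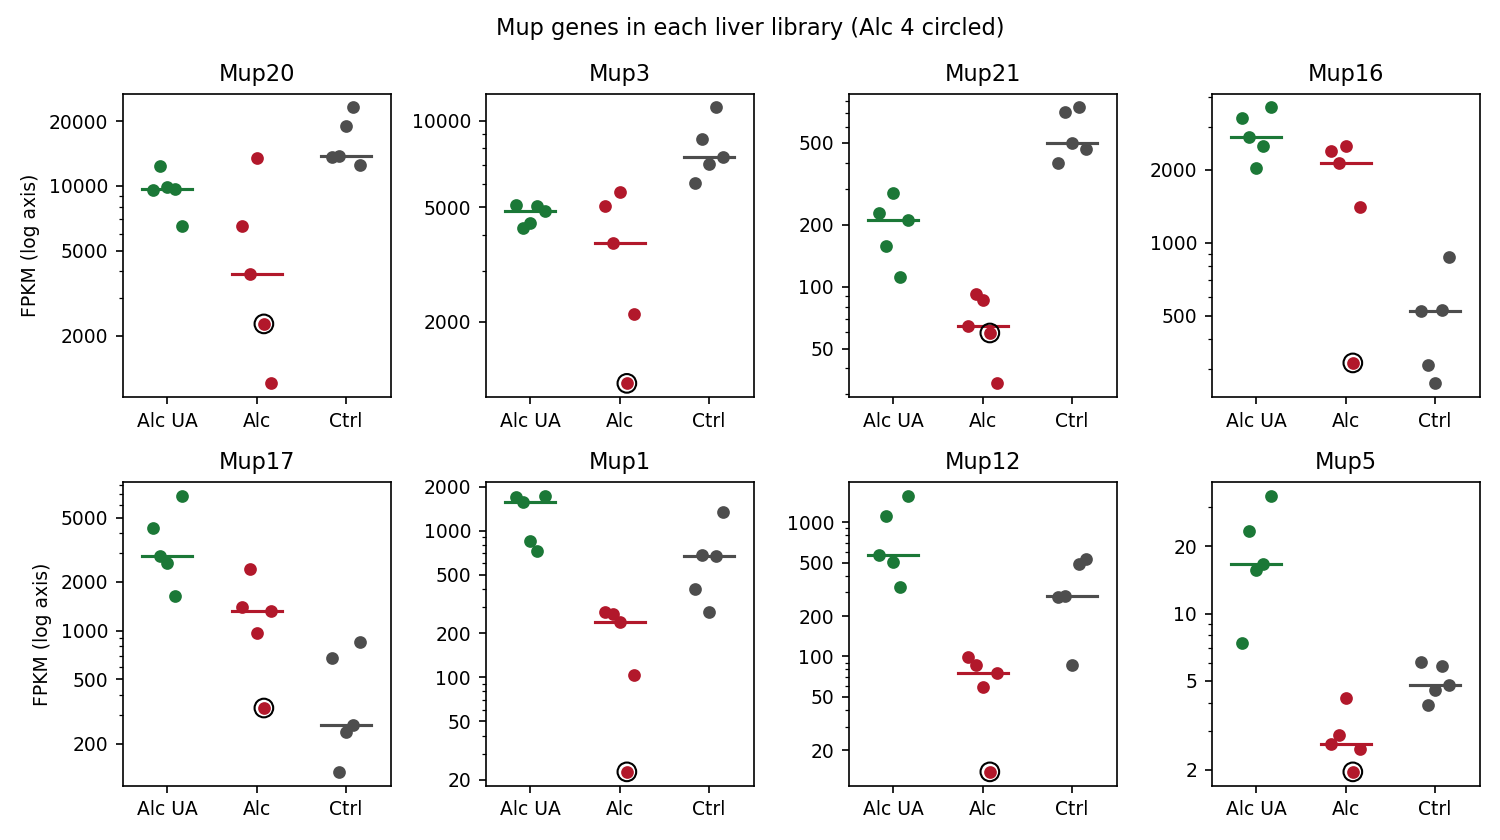
FPKM on a log axis of each of the 8 Mup genes in every library of the Alc UA, Alc and Ctrl groups, with points for libraries, lines for the group medians and a ring around Alc 4. Mup20, Mup3 and Mup21 are highest in Ctrl livers, Mup16 and Mup17 lowest there, and Mup1, Mup12 and Mup5 are highest in Alc UA livers.

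Set against all genes, the Mup rows lay on one side between Alc UA and Alc. In 4 of the 8 genes, Mup1, Mup5, Mup12 and Mup21, every Alc UA liver was above every Alc liver, a pattern that 0.283% of all genes tested showed. It also held for 8 of the 14 Mup rows that were not among the 8, so that 12 of 31 genes with this pattern and 12 of 22 Mup rows coincided. Rows with shared sequence share reads, so these 12 are not independent of each other. The log2 difference was above 0 in all 22 rows, against 35% of the genes tested, with a median of 1.58 over the 8 genes and 1.39 over the 22 rows. In no row was every Alc UA liver below every Alc liver, which is near the share of all genes with that pattern, 0.894%. Without Alc 4 the count was again 4 of 8 and 12 of 22, against 0.575% of the genes.

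The Alc against Ctrl differences ran both ways within the family. In 2 of the 8 genes, Mup3 and Mup21, every Alc liver was below every Ctrl liver, against 9.61% of the genes tested, and in 0 of 8 every Alc liver was above, against 6.18%. The count below was 4 without Alc 1, Alc 3 or Ctrl 3, 3 without Ctrl 2 or Ctrl 5, and 1, Mup21, under other scalings. Without Alc 4, the genes with every Alc liver above were Mup16 and Mup17 (6.83% of all genes). In Alc UA against Ctrl, every Alc UA liver was above in 3 of 8 genes (5.48% of all genes), Mup5, Mup16 and Mup17, and below in 3 of 8 (14.7% of all genes), Mup20, Mup3 and Mup21. The count below was 1, Mup21, under quantile and median-of-ratios scaling, and 2, Mup3 and Mup21, with libraries scaled to the same sum. The median log2 difference over the 8 genes was -1.69 for Alc against Ctrl and 1.19 for Alc UA against Ctrl, beside -0.64 and 1.07 over the 22 rows.

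**Figure D4:**
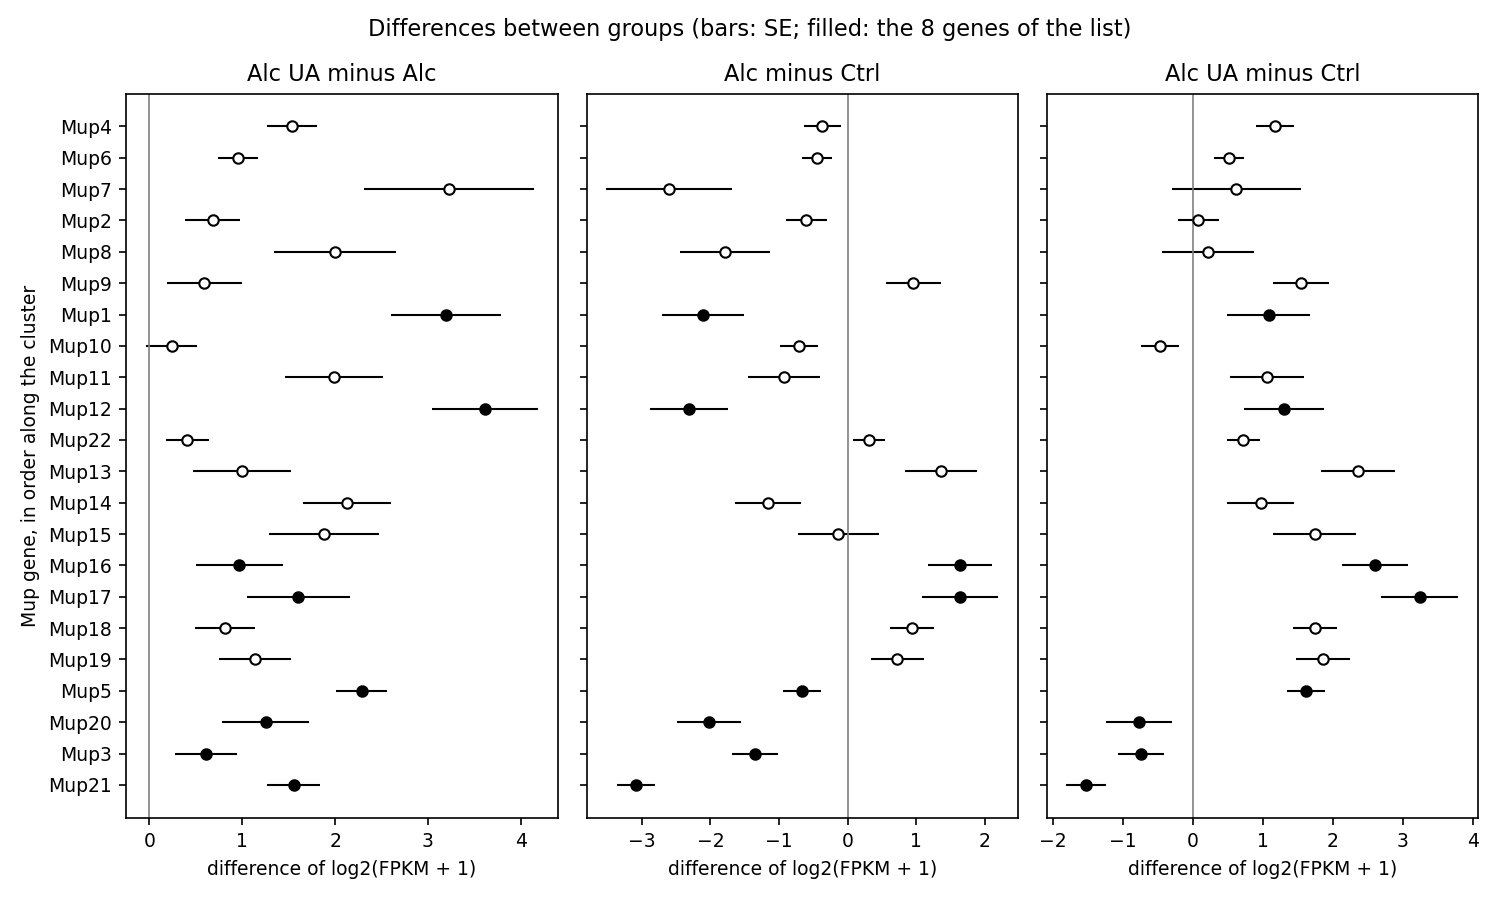
Log2 difference with its SE for the 22 Mup genes in their order along chromosome 4, for Alc UA against Alc, Alc against Ctrl and Alc UA against Ctrl. All 22 lie above 0 for Alc UA against Alc. The genes below 0 in both comparisons with Ctrl are Mup20, Mup3 and Mup21, at the bottom, and the central gene Mup10.

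Markers of other cell types differed between the alcohol-fed livers and the Ctrl livers. In bulk tissue, fewer cells of a type and less RNA per cell cannot be told apart. Of all genes tested, 22.8% passed as lower and 10.6% as higher in Alc than in Ctrl (limma). Sinusoidal endothelial markers summed to 56.9 to 73.5 FPKM in Alc UA livers, 54.6 to 117 FPKM in Alc livers and 118 to 339 FPKM in Ctrl livers, and 9 of 10 tested passed as lower in Alc than in Ctrl. Erythroid markers summed to 350.4 to 1037 FPKM in Alc UA livers, 579 to 992 FPKM in Alc livers and 1434 to 8803 FPKM in Ctrl livers, with 5 of 6 lower and 1 higher in Alc. The 3 of 8 T and NK cell markers that could be tested were all lower in Alc, with sums over the list of 3.36 to 10.1 FPKM in Alc UA livers, 2.89 to 10.04 FPKM in Alc livers and 4.61 to 41.3 FPKM in Ctrl livers. Likewise lower were the 4 of 6 B and plasma cell markers tested, with sums of 2.58 to 13.6 FPKM in Alc UA livers, 1.67 to 6.68 FPKM in Alc livers and 7.04 to 20.5 FPKM in Ctrl livers. In Alc against Ctrl the Kupffer and stellate lists had 0 calls (limma; 1 and 0 at an unadjusted p under 0.05). Of the 15 clock genes tested, 10 were higher and 4 lower in Alc than in Ctrl. Their sums were 271 to 342 FPKM in Alc UA livers, 294 to 436 FPKM in Alc livers and 108 to 176 FPKM in Ctrl livers. In Alc UA against Alc, 0 genes of any of these lists passed (limma; 2 endothelial markers and 2 clock genes at an unadjusted p under 0.05). No marker was at 0 in every library, and the part of these cell types and of the clock genes in the Mup differences was not tested.

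The known regulators of Mup transcription showed no change past the threshold between Alc UA and Alc. Of 20 listed genes, 19 were tested, and 0 passed there (limma; 2 at an unadjusted p under 0.05). Cebpa, Foxa2, Socs2 and Zhx2 had the smallest p, with adjusted p of 0.79 to 0.87 (limma). Cebpa, a transcription factor of hepatocytes, was at -0.33 ± 0.13 on the log2 scale. Foxa2, which opens liver enhancers, was at -0.81 ± 0.31. Socs2, a target and feedback inhibitor of growth hormone signalling, was at 0.75 ± 0.39, and Zhx2, also a transcription factor, at 0.16 ± 0.12. In Alc against Ctrl, 5 rose and 1 fell, against 33.3% of all genes called. Rxra, a partner of nuclear receptors, was at 109 ± 4.23 FPKM in Alc livers, against 76.2 ± 12.9 FPKM in Ctrl livers, a log2 difference of 0.53 ± 0.11 (limma, adjusted p = 0.0022). Onecut1, a liver transcription factor, was at 8.20 ± 3.03 FPKM in Alc livers, against 2.53 ± 1.66 FPKM in Ctrl livers (1.44 ± 0.34, adjusted p = 0.0056). The thyroid hormone receptor gene Thrb (0.51 ± 0.12, adjusted p = 0.0060) also rose. The growth hormone receptor gene Ghr rose by 0.36 ± 0.13, with an adjusted p of 0.046 that is close to the threshold (limma). Socs2 fell by 1.199 on the log2 scale. In Alc UA against Ctrl, 6 regulators rose and 2 fell, against 42.6% of all genes called. Leaving out 1 library at a time gave 3 to 7 regulators that rose and 0 to 2 that fell in Alc against Ctrl, with 3 and 0 without Alc 4. The same gave, in Alc UA against Ctrl, 3 to 7 that rose and 2 to 3 that fell, with 3 and 3 without Alc UA 2 or Ctrl 4. The fall of Socs2 was not called without Alc 1, Alc 2, Alc 4 or Ctrl 3.

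Other genes with higher expression in male than in female mouse liver were also examined. Their list was chosen with earlier results of these data known, so its counts are a description. Of 13 tested, 0 passed in Alc UA against Alc (limma), and 10 had an unadjusted p under 0.05, as had 664 of all 10959 genes. The median log2 difference over the list was 1.14. In Alc against Ctrl, 7 fell and 0 rose, with a median of -1.38. Over all genes tested, 22.8% passed as lower and 10.6% as higher, with a median of -0.12. When 1 library was left out at a time, 2 rose in Alc UA against Alc without Alc UA 4 and 1 without Ctrl 1, and 5 to 9 fell in Alc against Ctrl, with 7 without Alc 4. C6, a component of complement, was at 60.2 ± 18.4 FPKM in Alc UA livers, 20.6 ± 8.23 FPKM in Alc livers and 60.1 ± 12.7 FPKM in Ctrl livers. Its log2 difference was 1.55 ± 0.27 for Alc UA against Alc (adjusted p = 0.092) and -1.57 ± 0.27 for Alc against Ctrl (adjusted p = 8.0e-04). The cytochrome P450 gene Cyp4a12b had a log2 difference of 1.32 ± 0.27 for Alc UA against Alc (adjusted p = 0.20) and the related Cyp4a12a one of 0.81 ± 0.23. Elovl3, an enzyme that lengthens fatty acids, was at 29.2 ± 6.51 FPKM in Alc UA livers, 22.6 ± 4.98 FPKM in Alc livers and 289 ± 92.9 FPKM in Ctrl livers. In Alc UA against Ctrl, 1 male-biased gene rose, Cyp2d9, and 1 fell, Elovl3.

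Only 4 of 13 genes with higher expression in female liver could be tested, so their counts may favour the groups in which they are expressed. Of these, 3 rose in Alc against Ctrl, and 0 passed in Alc UA against Alc (limma; 2 at an unadjusted p under 0.05). Among all genes tested, 10.6% passed as higher and 22.8% as lower in Alc against Ctrl. Cyp2b9, a female-biased cytochrome P450 gene, was at 16.2 ± 18.7 FPKM in Alc UA livers, 135 ± 85.2 FPKM in Alc livers and 1.31 ± 2.73 FPKM in Ctrl livers, and its log2 difference between Alc UA and Alc was -3.56 ± 0.75 (adjusted p = 0.23). Of 8 other lipocalin genes tested, 0 passed in Alc UA against Alc (limma; 0 at an unadjusted p under 0.05), and in Alc against Ctrl 1 fell, C8g, a subunit of complement component C8, by 0.66 on the log2 scale (adjusted p = 0.0020). Without Ctrl 1, 2 lipocalin genes rose and 1 fell in Alc against Ctrl, and without Ctrl 3, 0 rose and 2 fell.

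Genes with profiles most like each Mup gene were ranked by the mean absolute difference of log2(FPKM + 1), each profile centred on its own mean, over all 15 libraries. The closest Mup rows were Mup7 for Mup1 (0.46), Mup1 for Mup12 (0.50), Mup13 for Mup16 (0.35) and for Mup17 (0.45), Mup4 for Mup5 (0.36), Mup3 for Mup20 (0.44), Mup10 for Mup3 (0.43) and Mup20 for Mup21 (0.63). Outside the family, the 5 closest to Mup1 were Slco1a1 (0.69), Hsd3b5 (0.72), C6 (0.72), Cyp7b1 (0.84) and Egfr (0.91). All 5 are on the list of male-biased genes, which was chosen with earlier results of these data known. Those closest to Mup12 were Hsd3b5 (0.90), C6 (0.94), Slco1a1 (0.96), Cyp4a12b (1.01) and Cyp7b1 (1.06), and those closest to Mup20 were Slc25a22 (0.52), C6 (0.52), Zfp707 (0.52), Gm40011 (0.54) and Enho (0.54). Mup3 was closest to Slc25a22 (0.29), Cyp2c23 (0.32), Pde9a (0.33), Aspdh (0.33) and Nlrp12 (0.34). For Mup16 they were Cyp2c54 (0.54), Slc2a5 (0.60), Nr1d2 (0.64), Upp2 (0.66) and Tef (0.67), and for Mup17 Gpcpd1 (0.82), Slc1a2 (0.82), Upp2 (0.83), Cyp2c54 (0.84) and Ppp1ccb (0.87). For Mup21 they were Id3 (0.63), Nfil3 (0.66), Kiss1 (0.66), H1f2 (0.66) and Slc16a1 (0.67), and for Mup5 Morf4l1b (0.63), Cyp4a12b (0.64), Zbed5 (0.66), Egfr (0.66) and Cd14 (0.66). The summed level of the 8 genes was closest to C6 (0.31), Cyp2c23 (0.35), Igfbp2 (0.39), Ung (0.39) and C9 (0.41). A small value says that the centred profiles lay close to each other in these libraries, which share the groups and the library Alc 4. It can also arise where both profiles vary little, so values for different Mup genes are not on a common footing.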

How the data were processed

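Liver RNA of 15 mice was extracted by a phenol-chloroform method and sequenced on an MGISEQ instrument, per the labels' protocols. The authors deposited FPKM values in 1 table, with 2 decimals. The submitters' processing notes list DESeq, StringTie, RSEM 1.2.8, Bowtie2 2.2.5 and HISAT2 2.1.0 and give no role for any. For genome build, annotation and strand, nothing is given in the sources used here. Table columns were matched to mice by group letter and number. The labels count 5 mice a group, and p-values measure the spread between these samples.

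The scale was log2(FPKM + 1). A filter kept rows that reached 1 FPKM in 5 or more of the 15 libraries, which left 10959 genes, all 22 Mup rows among them. The fit was a linear model of the 3 groups (R 4.3.3, limma 3.58.1), with a trended variance prior and 12 residual degrees of freedom. P-values were adjusted by Benjamini-Hochberg in each comparison, at 0.05. The fit was tested on simulated data. A planned test of the 8 genes in Alc UA against Alc was left out, since the choice of the genes could rest on that comparison.

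The members and gene lists were chosen with earlier results of these data known. All 8 members are named, with up to 4 genes of smallest p from each list in Alc UA against Alc and in Alc against Ctrl, of which a part is printed. A gene of the regulator list and a coding stretch are not reported here. Genes of like profile are the 5 nearest, and genes outside the family with a low mean in every group were left out of that ranking. Mup rows, which share reads, were ranked apart from other genes, a choice made after the values were seen, as were Alb, Ghr, Mup19 and the other Mup rows singled out in the text. Coding sequences came from GENCODE M21 and promoters from RefSeq (GRCm38.p6). Plots used Python 3.11.15 and matplotlib 3.10.9. Alternatives changed the pseudocount, filter, scaling, library weights, fitted groups and replicate block, and left out each library in turn. Leaving out libraries for the gene lists was chosen after seeing the data.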

Additional observations from a re-analysis of the deposited data

Results flagged for a closer look

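In groups of 5 libraries, 1 value stood far from the others, by a gap above Dixon's critical share of the whole range on the log2 scale, in 2 of 30 groups checked, against about 1 in 20 groups by chance. Both were low values of Alc 4. Mup12 was at 13.8 FPKM in Alc 4, and the next Alc liver was at 59.1 FPKM. Mup16 was at 319 FPKM in Alc 4, and the next Alc liver was at 1409 FPKM.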

How the results depend on the processing

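The 8 genes kept the sign of their differences in all 624 combinations of gene, comparison and setting, and 1 value moved by more than the spread between replicates, that of Mup17 in Alc against Ctrl with library weights (2.89). The count of genes called in Alc UA against Alc was 1, and it was 2 with at least 1 FPKM in every library, 2 with libraries scaled to the same sum of FPKM, also when the 8 genes were left out of the sum, 0 with only the 2 groups compared, 2 without both Ctrl 1 and Ctrl 5, and 3 with library weights. Leaving out each library in turn gave 1 to 5, with 5 without Alc UA 4. In Alc against Ctrl, 3654 genes were called and 5870 with library weights, and 2569 to 4487 when each library was left out. In Alc UA against Ctrl, 4673 were called, and 3837 to 5351 when each library was left out. The cause of these shifts was not tested.

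The log2 difference of the summed level of the 8 genes was 1.14 for Alc UA against Alc (0.82 to 1.43 when each library was left out), -1.35 for Alc against Ctrl (-1.64 to -1.03) and -0.21 for Alc UA against Ctrl (-0.28 to -0.09). Summed over all 22 rows it was -0.51 for Alc against Ctrl and 0.59 for Alc UA against Ctrl, a change of sign in the last, because the sum then includes the other central genes. Genes with every Alc library below every Ctrl library numbered 2, 1 under each other scaling, 4 without Alc 1, Alc 3 or Ctrl 3, and 3 without Ctrl 1 and Ctrl 5. Genes with every Alc UA library below every Ctrl library numbered 3, 1 under quantile and median-of-ratios scaling and 2 with either scaling to the same sum. With every Alc library above every Ctrl library, they numbered 0, 2 without Alc 4 and 1 without Ctrl 1 and Ctrl 5.

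With the replicate number as a block, 0 genes were called in Alc UA against Alc, 3554 in Alc against Ctrl and 4534 in Alc UA against Ctrl. Correlations of residuals between same-numbered libraries lay between -0.302 and 0.287, with 5 of 15 over 0.1, so the numbers were not taken to pair the mice. How many reads each library held is unknown, which leaves low values such as those of Mup5 without a counting error.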

Other observations

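The 2 pseudogene rows of the family are not among the 22 rows named Mup and a number. Mup-ps16 was at 125, 124, 118, 73.9 and 138 FPKM in Alc UA livers, 92.6, 168, 99.2, 175 and 179.5 FPKM in Alc livers, and 113, 25.1, 35.6, 31.3 and 60.8 FPKM in Ctrl livers. Alc UA and Alc livers overlapped in it, and 1 Ctrl liver, Ctrl 1, lay inside the range of both. Mup-ps12 averaged 15.97 ± 2.53 FPKM in Alc UA livers, 17.5 ± 6.40 FPKM in Alc livers and 15.9 ± 6.60 FPKM in Ctrl livers (SD, n = 5 each), and the 3 groups overlapped. Mup4 and Mup6, at the other end of the cluster, were weak in liver, as Mup5 was. Mup4 averaged 7.57 ± 3.07 FPKM in Alc UA livers, 1.92 ± 0.958 FPKM in Alc livers and 2.65 ± 0.685 FPKM in Ctrl livers. Mup6 averaged 7.67 ± 2.77 FPKM in Alc UA livers, 3.37 ± 0.890 FPKM in Alc livers and 4.99 ± 1.52 FPKM in Ctrl livers. In both, every Alc UA liver was above every Alc liver.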
